A study of Mus musculus with 2 samples.

Results

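The genes described here are 9 genes of the pituitary gonadotrope programme: the receptor gene Gnrhr, the hormone subunit genes Cga, Lhb and Fshb, and the nuclear factor genes Nr5a1, Pitx1, Foxl2, Lhx3 and Nr0b1. They were taken by name, as all non-control spots of the scanner files that carry 1 of these 9 symbols. This gave 12 probes and 21 spots, out of 55681 probes and 59305 non-control spots that name 35019 genes or other transcripts. The measurements came from cells labelled GT1-7, an immortalised mouse line of hypothalamic neurons known for releasing gonadotropin-releasing hormone (GnRH). Cells of the GnRH group were exposed to the peptide at 50 nM for 30 min and those of the vehicle group to DMSO for 30 min, with 1 sample and 1 array in each. The labels name no genotype for either group; the line is known to carry a viral T antigen driven by the Gnrh1 promoter. The free-text descriptions of both samples name bradykinin and the A549 line instead, and the groups here follow the treatment labels. The defining transcript of the labelled cell type, Gnrh1, did not stand well above background on either array, which goes against that label.

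GnRH acts on a G-protein-coupled receptor of pituitary gonadotropes and so drives the making and release of luteinizing hormone (LH) and follicle-stimulating hormone (FSH). Each hormone pairs a common alpha subunit, made from Cga, with a beta subunit of its own, made from Lhb or Fshb. Nr5a1 (steroidogenic factor, a nuclear receptor), Pitx1, Lhx3 and Foxl2 bind and activate these genes and Gnrhr, and Nr0b1 encodes a repressor that acts on Nr5a1. The comparison asked how the receptor, its target genes and their regulators stood after 30 min of exposure to the peptide.

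Of the 9 genes, 8 were well above background on both arrays, and Fshb was not on either, beside 60.6% of all names on the arrays measured in this way. No member differed 2-fold between the arrays. Differences are given on the log2 scale as GnRH minus vehicle, after each array was scaled to its own 75th percentile of signal, and a gene with several probes takes the brightest of those well above background on both arrays. The 8 measured genes ran from -0.13 (Nr5a1) to 0.11 (Lhb), with a median of -0.03, beside a median of -0.01 over all 21219 measured genes. In all, 0.443% of measured genes lay past 2-fold in either direction, 0.311% higher and 0.132% lower, so a count of 0 among 8 stands close to that background. Below 0 were 6 of the 8 genes, as were 52.5% of all measured genes. At 1.5-fold the background was 2.07%, with 1.19% higher and 0.881% lower, and no member passed. Values after ± give the scanner software's own error of a difference. For bright spots it mostly reflects the software's multiplicative setting of 0.1. Each neighbouring pair in the order of the 8 differences was closer than these errors.

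Neither group had a replicate array, so no test was made, and the precision is limited by the number of arrays. In RNA of a whole culture, fewer cells that express a gene and less RNA per cell cannot be told apart. Spots well above background made up 56.9% of non-control spots on the GnRH array and 55.2% on the vehicle array, and 0 were saturated. Before scaling, the 75th percentile of signal was 541 on the GnRH array and 578 on the vehicle array, a shift of -0.09 on the log2 scale. Processed signals below are in the scanner's units and were not scaled, so the shift is still in them. Signals of different probes are not on a common scale and are not ranked here. All 21 member spots lay outside the areas of the array where neighbouring spots differed together, and none was marked as an outlier. The spots around them had median differences of -0.18 to 0.05.

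**Figure D1:**
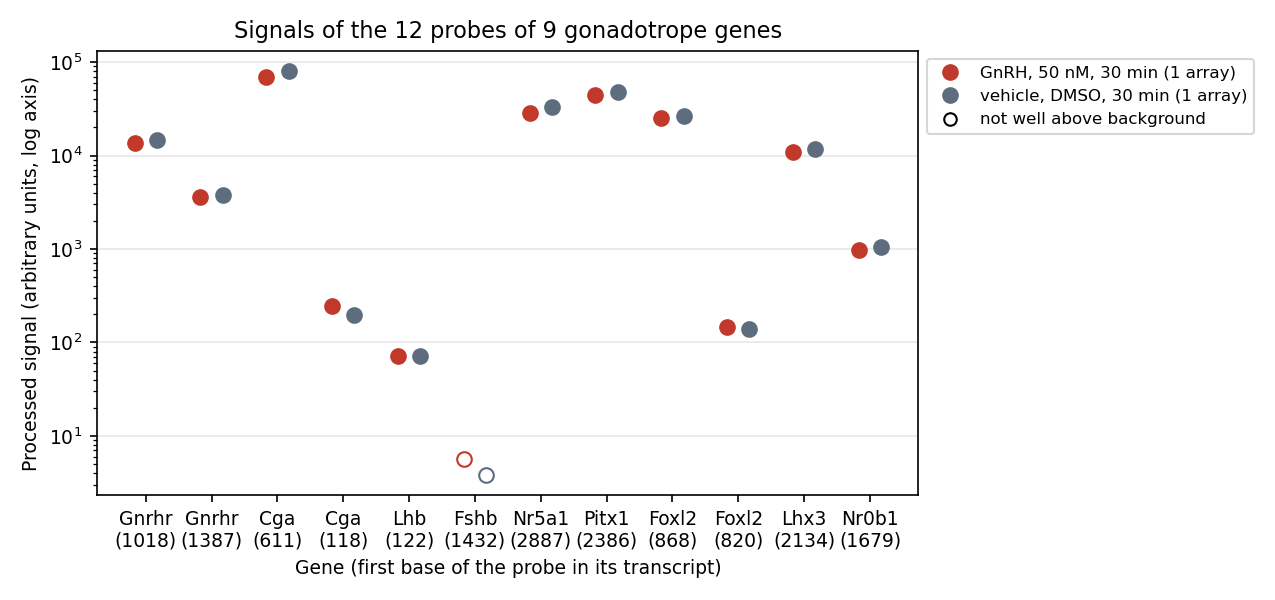
Processed signal (log axis, arbitrary units) of each of the 12 probes on the GnRH array and on the vehicle array, 1 point per array, with the number in brackets giving the first base of the probe in its transcript. Both open points, those of Fshb at 5.69 and 3.80, mark signals not well above background, and the other 11 pairs of points lie close together.

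Gnrhr encodes the receptor through which the peptide acts. It was measured by a pair of probes, both on the minus strand of chromosome 5 in the mm9 build that the files use. The probe that starts at base 1018 of its transcript (chr5:86611152-86611211) gave a processed signal of 13656 on the GnRH array and 14861 on the vehicle array. Its raw spot brightness stood 175 times over the local background on the GnRH array and 192 times on the vehicle array. The difference was -0.03 ± 0.20. The other probe, which starts at base 1387 of its own reference transcript (chr5:86613585-86613644), gave 3636 on the GnRH array and 3785 on the vehicle array, a difference of 0.04 ± 0.20. The receptor transcript was thus bright on both arrays, and its probes differed from each other by less than the scanner error.

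The RefSeq promoter of Gnrhr, 250 bases before to 50 bases after the gene start in build GRCm38.p6 (chr5:86197852-86198151, minus strand), is shown because the regulators described below were bright on these arrays. Capitals mark matches, on either strand, to the NR5A1 motif AAGGNCA and to the homeodomain core TAATC of PITX factors.
Gnrhr promoter: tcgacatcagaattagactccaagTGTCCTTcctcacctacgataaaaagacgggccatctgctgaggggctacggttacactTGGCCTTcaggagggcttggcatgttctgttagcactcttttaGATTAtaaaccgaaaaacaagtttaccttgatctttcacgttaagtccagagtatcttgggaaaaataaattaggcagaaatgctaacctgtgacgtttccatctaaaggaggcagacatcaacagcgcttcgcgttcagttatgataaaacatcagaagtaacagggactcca
The NR5A1 matches begin at -226 and -167 from the gene start, and the TAATC match at -124. Of 32851 promoter windows of the same length, 20.3% hold AAGGNCA and 22% hold TAATC, so such matches are common and describe letters only.

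Cga encodes the alpha subunit that LH and FSH share with thyroid-stimulating hormone. The probe at base 611 of the RefSeq transcript (chromosome 4, chr4:34854544-34854603, plus strand, mm9) gave a processed signal of 69481 on the GnRH array and 80508 on the vehicle array. Raw brightness was 886 times the local background on the GnRH array and 1034 times on the vehicle array. The scaled difference was -0.12 ± 0.20. A probe at base 118 of an Ensembl transcript of the gene (chr4:34842664-34842723, plus strand) gave 246 on the GnRH array and 196 on the vehicle array. Its difference was 0.42 ± 0.21, in the opposite direction, and it was the only one of the 11 measured member probes to lie beyond its scanner error. Over all 29665 measured probes, 15.8% lay beyond theirs, and 2.98% were as high as this probe. No spot was printed again for either probe.

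The polyadenylation hexamer AATAAA, in capitals below, occurs in 4 of the 12 member probes, those of Cga, Gnrhr, Nr5a1 and Lhx3, and in 10.1% of all probes. The stretches of 30 bases around it, 5′ to 3′ as the files give the probes, are shown because they tell which letters these bright signals were read from.
Cga probe at base 611: gtatttaccacggttccgtcagaAATAAAg
Gnrhr probe at base 1387: aaatataagctgAATAAAtcctttcttctt
Nr5a1 probe at base 2887: ctgcagccctgaAATAAAttttgcaattag
Lhx3 probe at base 2134: ctctttccaagacttcAATAAAtttgtcag
The hexamer was sought on the printed strand after the values were seen. The probe of Cga at base 118 does not hold it.

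Lhb encodes the beta subunit of LH. Its single probe (chromosome 7, chr7:52676685-52676744, plus strand, mm9, base 122 of the transcript) was well above background on both arrays. The processed signal was 72.1 on the GnRH array and 71.5 on the vehicle array. Raw brightness was 2.14 times the local background on the GnRH array and 2.28 times on the vehicle array. The scaled difference was 0.11 ± 0.22, within the scanner error. Its probe is printed whole, as the only reading of LH beta on the arrays.
Lhb probe at base 122: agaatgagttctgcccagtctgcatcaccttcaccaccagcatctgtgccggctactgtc

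Fshb encodes the beta subunit of FSH. Its probe (chromosome 2, chr2:106896400-106896459, minus strand, mm9) gave a processed signal of 5.69 on the GnRH array and 3.80 on the vehicle array. Raw brightness was 1.08 times the local background on the GnRH array and 1.04 times on the vehicle array. The scanner's looser mark, positive and significant against background, was set on the GnRH array and not on the vehicle array. Since neither array was well above background, no fold is given, and a difference in Fshb was not detectable at this signal.

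The promoters of the hormone genes show which of the regulators' motifs these windows hold. The Lhb window (chr7:45420696-45420995, plus strand, GRCm38.p6, RefSeq) carries the NR5A1 motif AAGGNCA beginning at -129 and -59, the EGR core GGGGGNG at -112 and -50, and the PITX core TAATC at -100, each read on the minus strand and shown in capitals.
Lhb promoter: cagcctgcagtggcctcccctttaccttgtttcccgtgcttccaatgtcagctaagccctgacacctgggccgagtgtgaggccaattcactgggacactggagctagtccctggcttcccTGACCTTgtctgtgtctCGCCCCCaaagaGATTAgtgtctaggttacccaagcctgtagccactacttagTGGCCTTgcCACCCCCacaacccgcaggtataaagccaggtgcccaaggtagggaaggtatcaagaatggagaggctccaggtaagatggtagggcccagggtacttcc
The EGR core occurs in 34.2% of all windows. The longer EGR motif GCGNGGGNG, found in 12.3% of windows, has no match in the Lhb window. Egr1, the zinc-finger factor that acts on Lhb together with Nr5a1 and Pitx1 in gonadotropes, had a processed signal of 24361 on the GnRH array and 73.5 on the vehicle array, a log2 difference of 8.47 ± 0.22. Lhb itself differed by 0.11 ± 0.22 on the same arrays. Its single probe was dim, at 2.14 times the local background on the GnRH array and 2.28 times on the vehicle array. A link between the values of Egr1 and Lhb was not tested.

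The Cga window (chr4:34893529-34893828, plus strand) and the Fshb window (chr2:107059602-107059901, minus strand) are shown for the same reason.
Cga promoter: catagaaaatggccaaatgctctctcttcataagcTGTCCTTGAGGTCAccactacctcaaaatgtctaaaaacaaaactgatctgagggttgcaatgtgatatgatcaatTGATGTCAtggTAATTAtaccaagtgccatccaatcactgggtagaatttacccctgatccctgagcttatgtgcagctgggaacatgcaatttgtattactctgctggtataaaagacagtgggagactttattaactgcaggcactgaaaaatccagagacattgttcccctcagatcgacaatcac
Fshb promoter: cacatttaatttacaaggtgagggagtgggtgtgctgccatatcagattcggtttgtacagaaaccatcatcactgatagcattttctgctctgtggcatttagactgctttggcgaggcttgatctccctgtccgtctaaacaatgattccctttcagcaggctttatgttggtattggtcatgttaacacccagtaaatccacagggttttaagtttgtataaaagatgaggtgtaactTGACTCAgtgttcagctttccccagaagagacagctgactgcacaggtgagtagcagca
In the Cga window the capitals mark an NR5A1 match at -215, which overlaps by 1 base a match to the cyclic AMP response motif TGANGTCA at -209, then a further TGANGTCA match at -139 and the LIM-homeodomain motif TAATTA at -128. In the Fshb window they mark the AP-1 motif TGANTCA at -9, and no other motif searched was found there. All windows held TGANGTCA in 8.83%, TAATTA in 5.29% and TGANTCA in 7.81% of cases. The motifs TAATCC (7.06% of windows) and GTAAACA (3.65%), named for PITX and forkhead factors, matched in none of the 4 windows printed. The search took in 8 windows of 7 members and 9 motifs. Among the windows not printed, a Lhx3 window held the EGR core at -45. The other Lhx3 window and those of Foxl2 and Nr0b1 held no match.

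**Figure D2:**
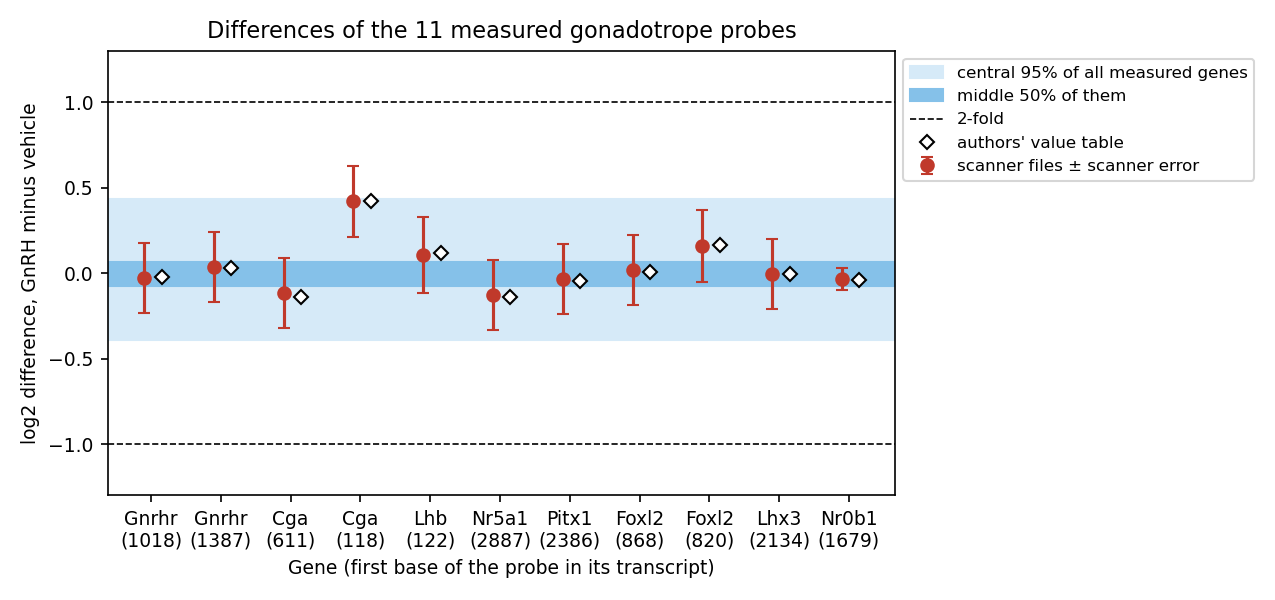
Log2 difference, GnRH minus vehicle, of the 11 probes well above background on both arrays, with the scanner error as bars and the authors' deposited values as diamonds. The bands give the central 95% and the middle 50% of all measured genes, and the filled points lie between -0.13 and 0.42, inside the dashed lines at 2-fold.

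Nr5a1, the nuclear receptor that acts on Gnrhr, Cga and Lhb, had a processed signal of 28614 on the GnRH array and 33412 on the vehicle array (chromosome 2, chr2:38548180-38548239, minus strand, mm9). The difference was -0.13 ± 0.20, the lowest of the 11 probes and within its scanner error. Nr0b1, which encodes the repressor of Nr5a1, was the only member printed 10 times on each array, at chrX:83441169-83441228 (plus strand). Its processed signals ran from 906 to 1041 with a median of 969.8 on the GnRH array, and from 1016 to 1115 with a median of 1044 on the vehicle array. The means were 970.0 ± 41.5 on the GnRH array and 1060 ± 37.3 on the vehicle array (SD over 10 spots of 1 array each). The ranges overlapped, and every spot was dimmer on the GnRH array than the same position on the vehicle array before scaling.

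After scaling, single Nr0b1 spots differed by -0.09 to 0.05, with 3 spots above 0 and 7 below. Their mean difference was -0.03 with an SD of 0.04 over 10 spots and a scanner error of 0.06. Of the 399 probes printed 10 times, 261 were well above background on all kept spots of both arrays. The central 95% of their differences ran from -0.17 to 0.26, which takes in the value of Nr0b1. The spread over spots is that of printing and scanning within an array and holds no variation between cultures.

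**Figure D3:**
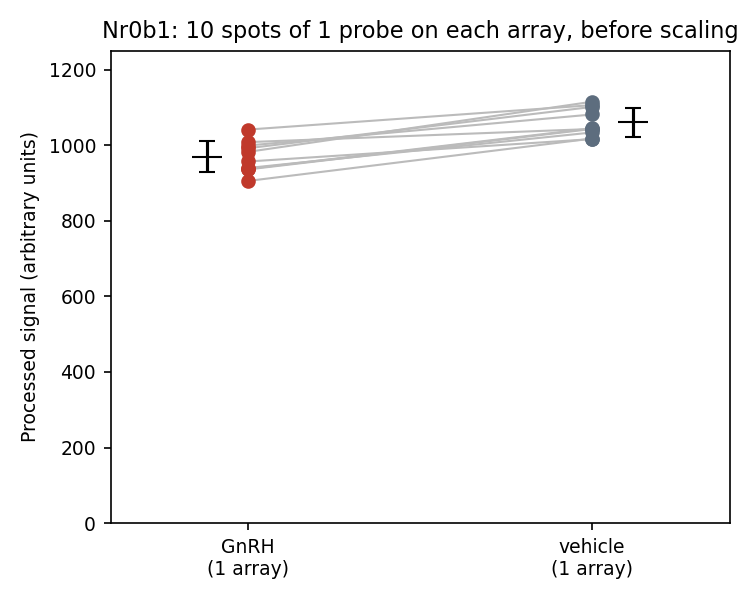
Processed signal (arbitrary units, before scaling) of the 10 Nr0b1 spots on the GnRH array and on the vehicle array, with lines joining spots at the same position and bars for the mean and SD over spots. The GnRH spots lie between 906 and 1041 and the vehicle spots between 1016 and 1115, so the groups of spots overlap.

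Among the homeodomain and forkhead factors, Pitx1, a factor of early pituitary formation that also acts on Lhb, gave 44001 on the GnRH array and 48204 on the vehicle array (chromosome 13, chr13:55926417-55926476, minus strand, mm9). Its difference was -0.04 ± 0.20. Lhx3, a LIM-homeodomain factor needed for most pituitary lineages, gave 10937 on the GnRH array and 11741 on the vehicle array (chr2:26055746-26055805, minus strand), a difference of -0.01 ± 0.20. Both factors were bright on both arrays and differed by less than the scanner error.

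Foxl2, a forkhead factor of gonadotropes and ovary that acts on Fshb, was read by a pair of probes on the plus strand of chromosome 9. The probe at base 868 (chr9:98856894-98856950) gave 25329 on the GnRH array and 26688 on the vehicle array, a difference of 0.02 ± 0.20. The probe at base 820 (chr9:98856846-98856905) gave 145 on the GnRH array and 139 on the vehicle array, a difference of 0.16 ± 0.21. The probes are printed because their genome positions overlap. Capitals mark the run of 12 bases they share, which begins at position 49 of the probe at base 820 and at position 4 of the probe at base 868, counted from the 5′ end.
Foxl2 probe at base 820: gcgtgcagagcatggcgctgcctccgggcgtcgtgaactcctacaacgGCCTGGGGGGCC
Foxl2 probe at base 868: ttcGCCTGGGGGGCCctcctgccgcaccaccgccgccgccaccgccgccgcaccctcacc
The files align 57 of the 60 bases of the probe at base 868 to the genome. G and C made up 43 bases of the probe at base 820 and 49 of the probe at base 868, against a median of 26 over all 60-base probes. What part this composition has in their signals was not tested. Exons and untranslated regions were not assigned to the probes of the 9 genes, since no annotation of mm9 was used.

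**Figure D4:**
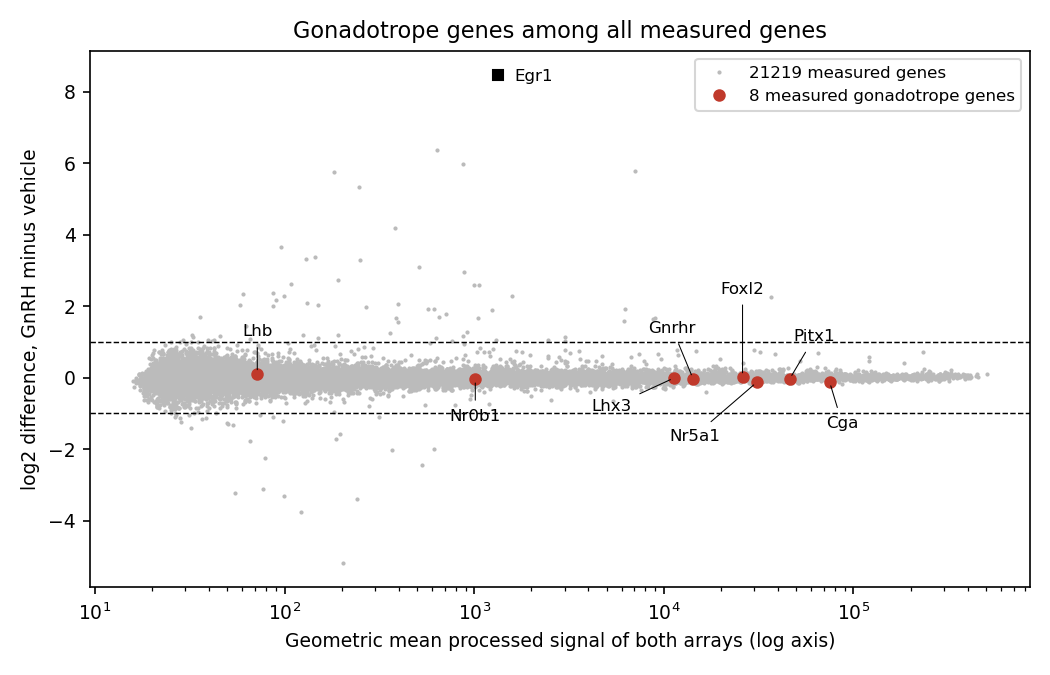
Log2 difference, GnRH minus vehicle, against the geometric mean of the processed signals of both arrays (log axis) for 21219 measured genes (grey), the 8 measured gonadotrope genes (red) and Egr1 (black square). The 8 genes lie between -0.13 and 0.11, with dashed lines at 2-fold, and Egr1 stands at 8.47.

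Other genes of the gonadotrope programme gave the following values. Of 23 further gonadotrope and early pituitary regulators, 19 were measured on both arrays, and 1, Egr1, was at least 2-fold higher. Their median difference was 0.02. The next highest were Nab1, a corepressor of EGR factors, at 0.24 ± 0.20 and the LIM-homeodomain gene Isl1 at 0.11 ± 0.07. The lowest were the corepressor gene Tle4 at -0.30 ± 0.22, Usf1 at -0.13 ± 0.21 and Nfya at -0.09 ± 0.20. With normexp background correction Tle4 stood at -0.15, and with no background correction at -0.14. Hesx1, Otx1 and Bmp4 were not well above background on either array.

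Genes for steroid receptors, activin receptors and other inputs to the gonadotrope had 14 of 17 measured, none past 2-fold and a median of -0.05. Inhba, which encodes an activin and inhibin beta subunit, was highest, with 130 on the GnRH array and 103 on the vehicle array (0.44 ± 0.21). Acvr2a, an activin receptor gene, stood at 0.18 ± 0.21 and Igf1r at 0.07 ± 0.20. Inha, the inhibin alpha subunit gene, was lowest, with 310 on the GnRH array and 404 on the vehicle array (-0.29 ± 0.20), followed by the oestrogen receptor gene Esr2 at -0.21 ± 0.20 and the glucocorticoid receptor gene Nr3c1 at -0.12 ± 0.20. Of the 14 measured genes 3, Inhba, Inha and Esr2, lay beyond their scanner errors, as did 14.1% of all measured genes. The other probe of Acvr2a stood at -0.05. Among further probes of genes outside the naming rule, chosen after their values were seen, 1 of the 4 for the oestrogen receptor gene Esr1 stood at -0.96 and 1 of the 3 for the progesterone receptor gene Pgr at 0.33, against -0.02 and -0.03 on their brightest probes.

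The list of genes for gonadotropin glycosylation and sulphation and for secretory proteins had 10 of 11 measured, none past 2-fold and a median of -0.02. Chst8, the sulphotransferase that acts on LH sugars, gave 14475 on the GnRH array and 16507 on the vehicle array (-0.09 ± 0.20). The granin gene Scg2 gave 18468 on the GnRH array and 19024 on the vehicle array (0.05 ± 0.20). Pam, a peptide-amidating enzyme gene, was the lowest at -0.38 ± 0.22, with signals of 96.6 on the GnRH array and 135 on the vehicle array. With normexp background correction Pam stood at -0.22, and with no background correction at -0.20. The convertase gene Pcsk2 stood at -0.12 ± 0.20, Pcsk1 at 0.00 ± 0.20 and the glycosyltransferase gene B4galnt4 at 0.03 ± 0.22.

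The labelled cell type was set against markers. Gnrh1, which encodes the GnRH precursor, had a pair of probes, and neither stood well above background, with the brighter at 10.3 on the GnRH array and 7.94 on the vehicle array. Of the 13 GnRH neuron markers, 8 were measured on both arrays, from the homeobox gene Otx2 at -0.59 ± 0.23 (49.9 on the GnRH array and 80.2 on the vehicle array) to Dlx5 at 0.62 ± 0.37 (31.3 on the GnRH array and 21.7 on the vehicle array). With normexp background correction Otx2 stood at -0.26 and Dlx5 at 0.15, and with no background correction at -0.23 and 0.22. Six6, Meis1, Nhlh2 and Ebf2 were not well above background on either array. The other values ran from Ndn at -0.21 ± 0.26 and Gnas at -0.09 ± 0.20 to Isl1 at 0.11 ± 0.07 and Pou2f1 at 0.13 ± 0.20. Between them, Gal gave 1434 on the GnRH array and 1534 on the vehicle array (-0.003 ± 0.20). Kiss1r gave 78.1 on the GnRH array and 81.9 on the vehicle array (0.03 ± 0.22). The measured share was 61.5% of the GnRH neuron markers and 88.9% of the gonadotrope genes, beside 60.6% of all names. Lhb, counted among the latter, stood only 2.14 times over local background on the GnRH array and 2.28 times on the vehicle array. Both lists were chosen with earlier results of these data known, so their measured shares do not test the cell type. The lack of Gnrh1 signal goes against the label, while 8 of 9 gonadotrope genes were measured, and no new cell type name is given to these cells.

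Of 16 markers of other pituitary lineages, 4 were measured on both arrays. These were Neurod1 at 0.33 ± 0.20 (1618 on the GnRH array and 1373 on the vehicle array), Neurod4 at 0.18 ± 0.20, Crhr1 at 0.01 ± 0.27 and Drd2 at -0.04 ± 0.29. The hormone genes Prl, Pomc and Tshb and the lineage factor genes Pou1f1 and Pax7 were not well above background on either array. Nor were Ghrhr, Trhr, Avpr1b, Sox2 and S100b. The hormone gene Gh was well above background on the GnRH array only. Its signals were dim and close together, 14.96 on the GnRH array and 13.16 on the vehicle array, so no difference is read from that mark. Tbx19, the corticotrope factor gene, gave 1048 on the GnRH array and 8.08 on the vehicle array, at least 68.6-fold higher. That bound sets its scaled GnRH signal against the lowest scaled signal well above background on the vehicle array. Its spot lay in an area where neighbouring spots differed together, and the part of that area in the value was not tested.

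Nr5a1 is also expressed in the adrenal cortex, the gonads and the ventromedial hypothalamus, so markers of these were listed. Of 15 adrenal and gonad markers, 5 were measured on both arrays. Among them were Cyp17a1, a steroid hydroxylase gene, with 6222 on the GnRH array and 6791 on the vehicle array (-0.03 ± 0.20), and Scarb1, a lipoprotein receptor gene, with 14631 on the GnRH array and 15461 on the vehicle array (0.02 ± 0.20, and -0.11 on its other probe). Star stood at -0.32 ± 0.29 (-0.02 with normexp and -0.04 with no background correction), Inha at -0.29 ± 0.20 and Cyp21a1 at 0.03 ± 0.21. Cyp11a1, Cyp11b1, Cyp11b2, Cyp19a1, Hsd3b1, Mc2r, Amh, Lhcgr, Fshr and Sult1e1 were not well above background on either array. Of 8 ventromedial markers, 3 were measured on both arrays, Fezf1 at -0.12 ± 0.21, Slc17a6 at -0.08 ± 0.20 and Nkx2-2 at 0.22 ± 0.22. Nkx2-1, Nptx2, Adcyap1 and Gabra5 were not well above background on either array. Sox14 was well above background on the GnRH array only, with dim signals of 28.8 on the GnRH array and 18.3 on the vehicle array.

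**Figure D5:**
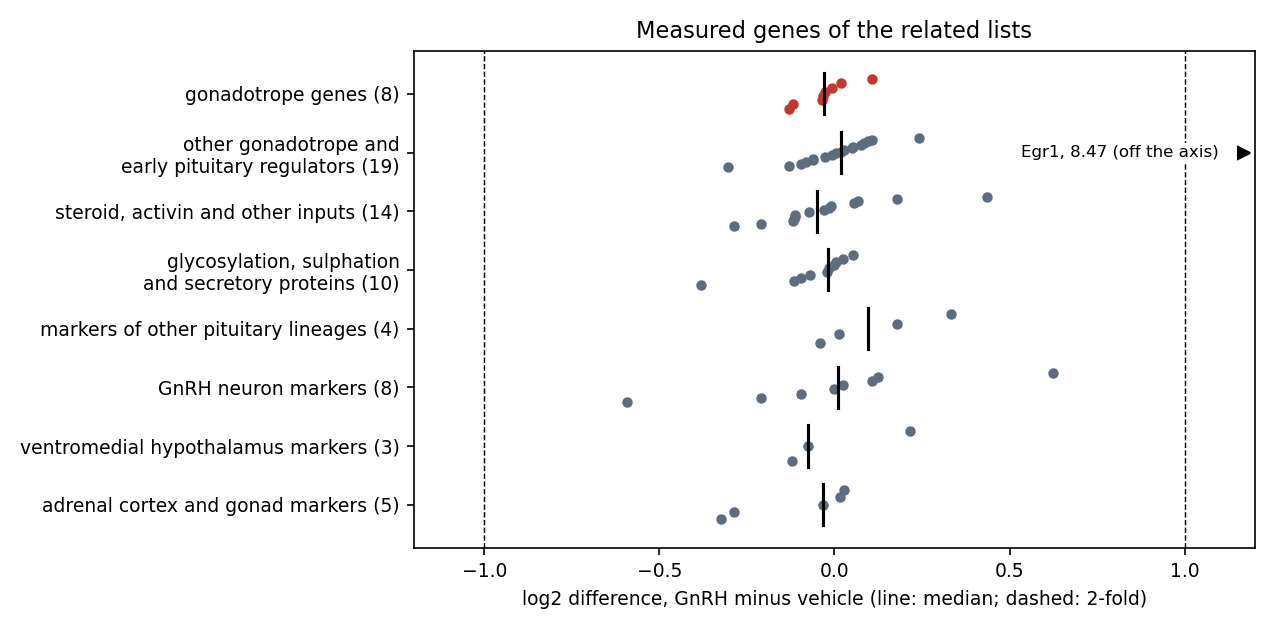
Log2 difference, GnRH minus vehicle, of every gene measured on both arrays in the gonadotrope genes (top row, red) and in the 7 related lists, with the number measured in brackets, the median of each list as a line and dashed lines at 2-fold. Apart from Egr1 at 8.47, marked off the axis, the points lie between -0.59 and 0.62.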

How the data were processed

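Total RNA of 2 samples was read in 1 colour (Cy3) on Agilent mouse arrays of 60-base probes, 1 array per group on 1 slide, according to the labels and headers. The deposited scanner files give intensity on a linear scale, detrended within each array for spatial and multiplicative trends by Feature Extraction 10.7.1.1, with its separate background correction switched off, per the file headers. Version 9.5.1.1 stands in the submitters' processing notes. The error of bright spots mostly reflects the software's multiplicative setting of 0.1. The authors' deposited value table also holds linear intensity (column medians of 28.4, method of normalization not given in the sources used here). It correlated at r = 0.998 with the scanner differences across probes.

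Outlier spots were left out, 94 on the GnRH array and 121 on the vehicle array. Log2 processed signals were averaged per probe and scaled to each array's 75th percentile. The mark for well above background was needed on 50% or more of a probe's kept spots. Of 55681 probes, 27235 were named through RefSeq accessions (GRCm38.p6), and the rest keep the file's name. Areas were connected groups of at least 4 spots whose neighbours within 2 rows and columns (at least 12 spots) had a median difference of 0.3 or more in size, widened by 2 spots; 3 areas held 0.988% of non-control spots. Genes were counted at 2-fold, without a test. Named genes were the 9 members, Egr1, Gnrh1 and, of each list, the 3 highest and 3 lowest differences and any past 2-fold. Marker genes not well above background are named where a marker list was checked. Gal and Kiss1r are also named, so that every listed GnRH neuron marker is given. Members and lists were chosen with earlier results of these data known, and the motifs TAATC and GGGGGNG after the promoters were seen. Steps were tested on simulated data. Tools were Python 3.11.15, numpy 2.4.6, pandas 2.3.3 and limma 3.58.1 (R 4.3.3) for normexp. Alternatives changed scaling, background correction, source of values, outliers, filter, probe rule, threshold and background call.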

Additional observations from a re-analysis of the deposited data

How the results depend on the processing

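No alternative brought a member past 2-fold, and the count of 0 also held at a threshold of 1.5-fold. At 3-fold the count of 0 follows from that at 2-fold. The median difference of the measured members lay between -0.06 and 0.00 over 11 alternatives, within the scanner error of 0.20. The 8 genes well above background on both arrays remained 8 with the looser and with the stricter background call. Over 6 alternatives the 66 values of the 11 member probes all stayed within the scanner error of the main values. The Cga probe at base 118 ran from 0.34 to 0.42, the Cga probe at base 611 from -0.15 to -0.10, Nr5a1 from -0.16 to -0.09 and Lhb from 0.04 to 0.12. Foxl2 at base 868 ran from -0.01 to 0.02 and Lhx3 from -0.04 to 0.01, so their signs depend on the setting. Of 272 values of 34 other listed genes, 7 moved by more than the scanner error. With normexp (offset 50) Egr1 gave 7.52, Otx2 -0.26, Dlx5 0.15 and Star -0.02. With no background correction Egr1 gave 7.44, Otx2 -0.23 and Dlx5 0.22. No alternative turned the sign of a value past 2-fold. The cause was not tested. Signal over background limits Lhb and Fshb most. No paired analysis was possible because each group has 1 array.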

Other observations

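The following were looked at after the values were seen and are descriptions only. Gnrhr, Cga, Nr5a1, Pitx1, Foxl2 and Lhx3 were among 3254 measured genes with a processed signal of at least 10000 on the vehicle array. The central 95% of those genes ran from -0.12 to 0.17 and the middle 50% from -0.04 to 0.04. Nr5a1, at -0.129, lay below the lower end of that central 95%, which was -0.122. Cga, at -0.118 on its brighter probe, lay inside it. Both values were closer to that end than their scanner error of 0.20. Over the alternatives Nr5a1 ran from -0.16 to -0.09 and this Cga probe from -0.15 to -0.10. The limit thus does not tell these genes apart.

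The dim Cga probe at base 118 stood at 0.42. Among 6973 measured probes with a geometric mean signal of 100 to 500, the central 95% of differences ran from -0.35 to 0.32, and 1.31% were as high as this probe. The inhibin subunit genes Inhba, at 0.44 ± 0.21, and Inha, at -0.29 ± 0.20, lay on opposite sides of 0, each with a single measured probe. A further inhibin subunit gene outside the naming rule, Inhbb, stood at -0.11 ± 0.20, within its scanner error. Both measured probes of Neurod1, a basic helix-loop-helix factor of corticotropes and neurons, lay above 0, at 0.33 and 0.40.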
